A study of Mus musculus with 24 samples.

Results

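The genes described here encode 10 membrane transporters with which hepatocytes move bile acids, bilirubin conjugates, other organic anions and phospholipid between blood, cell and bile. They were chosen by gene name, with no cut on a measured value but with earlier results of these data known. All 10 were found among the 24137 genes of the count tables. Slc10a1, Slco1a1, Slco1a4, Slco1b2 and Slco2b1 are uptake transporters, Abcb11, Abcb4 and Abcc2 act at the canalicular membrane, and Abcc3 and Abcc4 are basolateral exporters.

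Whole liver RNA of 24 mice was sequenced, with 1 library from each mouse, and each group is called here by its label. LF_C (n = 4) were undrugged mice of the control genotype that ate the LFCF diet, and the labels call their diet low fat and the mice healthy. HF_C (n = 5) held control mice fed the HFCF diet for 34 weeks, and HF_KO (n = 5) held mice on the same diet in which a hepatocyte-specific PPARγ knockout was induced after 24 weeks and lasted 10 weeks. HF_TZD_C and HF_TZD_KO (n = 5 each) matched HF_C and HF_KO but ate HFCF food containing rosiglitazone maleate for the last 8 weeks, a thiazolidinedione drug that activates PPARγ. The series describes the HFCF diet as inducing NASH, fatty liver with inflammation. How the knockout was induced and what the control mice carried are not given in the sources used here, and all 4 HFCF groups share the diet.

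Bile acids circulate between liver and intestine. Hepatocytes take them up from portal blood, chiefly through the sodium-dependent transporter NTCP (Slc10a1) with help from the sodium-independent OATP family (Slco genes), and secrete them into the bile canaliculus through BSEP (Abcb11), the step that drives bile flow. MDR2 (Abcb4) places phosphatidylcholine in bile, MRP2 (Abcc2) exports conjugated bilirubin and glutathione conjugates, and MRP3 (Abcc3) and MRP4 (Abcc4) return anions to the blood; in cholestasis the uptake genes are known to be lowered and the basolateral exporters raised.

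Promoters are shown for 4 of the 5 members called lower on the HFCF diet than on LFCF, and for Abcc4, called higher. They were picked because their genes moved in opposite directions in that comparison. Each is the 250 bases before the RefSeq start in GRCm38.p6, read on the gene's strand from 5′ to 3′, and none of the 5 overlaps an annotated exon of GENCODE vM21. The other lowered member, Slco2b1, is not shown, and all 250 bases of its window lie in annotated exons. Capitals mark matches to 4 short motifs that were searched on both strands, AGGTCA (the hexamer bound by many nuclear receptors), GGNCA and TGNCC with 1 base between (a relaxed inverted repeat of that hexamer, N being any base), TGACNNNGC (the antioxidant response element core) and GTTAAT (an HNF1 core).
Slc10a1 (chr12:80968080-80968329, minus strand): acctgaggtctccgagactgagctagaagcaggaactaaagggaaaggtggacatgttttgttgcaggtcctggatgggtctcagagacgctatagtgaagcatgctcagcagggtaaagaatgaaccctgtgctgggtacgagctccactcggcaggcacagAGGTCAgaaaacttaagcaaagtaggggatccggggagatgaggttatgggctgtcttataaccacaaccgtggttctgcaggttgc
Slco1a1 (chr6:141946963-141947212, minus strand): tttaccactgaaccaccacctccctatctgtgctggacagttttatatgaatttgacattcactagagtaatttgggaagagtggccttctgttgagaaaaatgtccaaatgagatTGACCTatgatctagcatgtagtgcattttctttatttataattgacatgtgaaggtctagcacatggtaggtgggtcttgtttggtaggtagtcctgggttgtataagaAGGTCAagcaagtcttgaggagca
Slco1b2 (chr6:141629268-141629517, plus strand): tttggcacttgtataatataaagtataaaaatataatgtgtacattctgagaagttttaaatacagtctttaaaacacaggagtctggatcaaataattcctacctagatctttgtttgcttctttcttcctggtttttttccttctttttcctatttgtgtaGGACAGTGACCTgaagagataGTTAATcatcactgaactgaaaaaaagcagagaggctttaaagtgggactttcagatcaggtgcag
Abcb11 (chr2:69342617-69342866, minus strand): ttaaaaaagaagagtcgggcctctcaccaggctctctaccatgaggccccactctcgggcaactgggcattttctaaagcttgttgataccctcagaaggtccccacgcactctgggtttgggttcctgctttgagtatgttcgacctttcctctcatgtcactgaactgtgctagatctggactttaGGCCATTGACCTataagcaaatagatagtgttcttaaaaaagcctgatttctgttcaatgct
Abcc4 (chr14:118706220-118706469, minus strand): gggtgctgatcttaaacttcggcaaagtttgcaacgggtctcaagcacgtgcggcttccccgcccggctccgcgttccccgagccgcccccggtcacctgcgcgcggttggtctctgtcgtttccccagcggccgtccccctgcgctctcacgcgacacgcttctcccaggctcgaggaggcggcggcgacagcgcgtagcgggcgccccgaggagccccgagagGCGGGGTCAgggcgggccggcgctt
Of the 10 members, 9 were in the RefSeq promoter table; Abcc3 was named only. Slc10a1 held AGGTCA at bases 87 to 82 before the start. Slco1a1 held it at 24 to 19 and, on the other strand, at 134 to 129. In Slco1b2 the inverted repeat GGACAGTGACC at bases 87 to 77 overlapped a reverse-strand hexamer at 81 to 76, with GTTAAT at 66 to 61. In Abcb11 the inverted repeat GGCCATTGACC at bases 62 to 52 overlapped a reverse-strand hexamer at 56 to 51. Abcc4 held only the antioxidant response core, on the reverse strand at bases 25 to 17. Of the windows not shown, Abcc2, which was not called with the diet, held AGGTCA at 49 to 44 and the antioxidant response core at 98 to 90. The 116 bases of that window nearest the start lie in annotated exons, and both matches fall there. The windows of Slco2b1, Slco1a4 and Abcb4 held no match. Over the 9 windows no motif divided lowered from other members. For AGGTCA this rested on Abcc2 and Slco2b1, whose windows overlap annotated exons. Over 32817 promoters of the same length, 14% held AGGTCA, 0.576% the inverted repeat, 10.2% TGACNNNGC and 6.44% GTTAAT. A relaxed direct repeat (GGNCA and AGGNCA with 1 base between, found in 0.695% of promoters) had no match in the 9 windows. These matches describe letters and were not tested as binding sites.

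The libraries held 19.5 to 28.7 M counted reads, and every member had reads in every library, from 47 reads for Abcc4 in an LF_C library to 37670 for Slco1b2. Levels are given as CPM, a gene's count for each M of counted reads, scaled by TMM over all 24 libraries, and CPM per kilobase of the deposited gene length where different genes are compared. Hepatocyte identity was checked with 20 marker genes, all detected, which summed to 66728 CPM or more in each library. Pparg, the labelled target, did not fall: it stood at 28.3 to 35.5 CPM in HF_C and at 57.7 to 70.2 CPM in the libraries labelled HF_KO, and at 24.5 to 30.6 CPM in HF_TZD_C against 31.7 to 62.0 CPM in those labelled HF_TZD_KO. Gene-level counts of whole liver take in other cell types and any exon that a deletion leaves, so they do not check the knockout, and genotype is used here as labelled. In whole liver, fewer cells of a type and less RNA per cell cannot be told apart. The libraries were not strand specific. Antisense genes share exon bases with Slco2b1 (471 bases with Gm15635, which held 1176 reads against 94660) and Abcb11 (136 bases with Gm13613, 146 reads against 286437). Among close relatives, 2.07% of the 50-base stretches of Slco1a1 also occur in Slco1a4 and 3.05% of those of Abcb4 in Abcb1a.

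Per length, Slco1b2, which takes up bilirubin and bile acids, and Slc10a1 were the most abundant members of the healthy liver. In LF_C, Slco1b2 averaged 482.7 ± 33.8 and Slc10a1 455.5 ± 78.3 CPM per kilobase (SD, n = 4). The 3 canalicular transporters lay close together there, with Abcb11 at 127.8 ± 13.5, Abcc2 at 126 ± 13.9 and Abcb4 at 116.3 ± 16.5 CPM per kilobase. Abcc3 followed at 70.9 ± 11.2, Slco1a1 at 54.8 ± 14.8, Slco2b1 at 51.1 ± 5.25 and Slco1a4 at 20.8 ± 6.85 CPM per kilobase. Abcc4 was far below the others at 0.619 ± 0.247 CPM per kilobase. Across the 5 group means Slco1a1 spanned 28.7-fold, Abcc4 4.13-fold, Slc10a1 3.36-fold, Abcc3 3.24-fold and Slco1a4 3.21-fold. The span was 1.21-fold for Abcc2, 1.43-fold for Slco1b2, 1.5-fold for Abcb11, 1.59-fold for Abcb4 and 1.81-fold for Slco2b1.

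**Figure D1:**
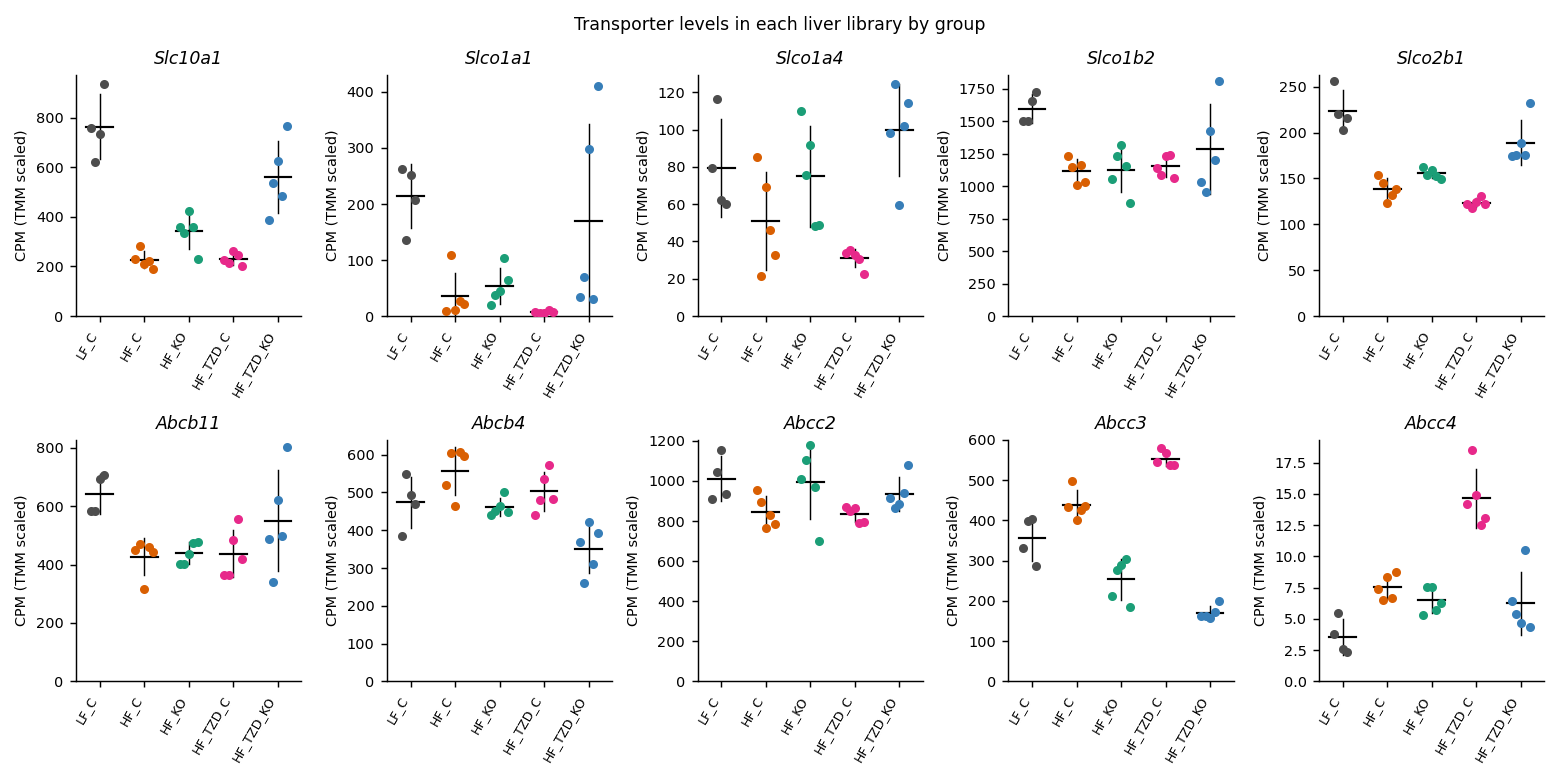
Level of each transporter in CPM (vertical axes, TMM scaled, starting at 0) in every library, by group on the horizontal axis; points are libraries, horizontal lines group means and vertical lines SD. Slc10a1 sits between 189.6 and 282 CPM in HF_C against 619.7 to 937 CPM in LF_C, and Abcc3 between 158 and 200 CPM in HF_TZD_KO against 537 to 579 CPM in HF_TZD_C.

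As a share of the 10 members' summed level per length, Slco1b2 held a steady part, with group means of 32.0% to 36.7%. Slc10a1 held 30.1 ± 3.49% in LF_C (SD, n = 4) but 14.3 ± 1.35% in HF_C and 14.4 ± 0.694% in HF_TZD_C (SD, n = 5 each). In the groups labelled knockout it held 20.5 ± 2.12% (HF_KO) and 28.3 ± 3.09% (HF_TZD_KO; SD, n = 5 each). Abcc3 was lowest as a share where Slc10a1 was high, at 4.74 ± 0.935% in LF_C and 2.97 ± 0.492% in HF_TZD_KO, and it reached 11.6 ± 0.855% in HF_TZD_C. Abcb4 made up 7.76 ± 1.33% in LF_C and 14.5 ± 1.42% in HF_C. These shares are not independent of each other, since they sum to the whole within a library.

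**Figure D2:**
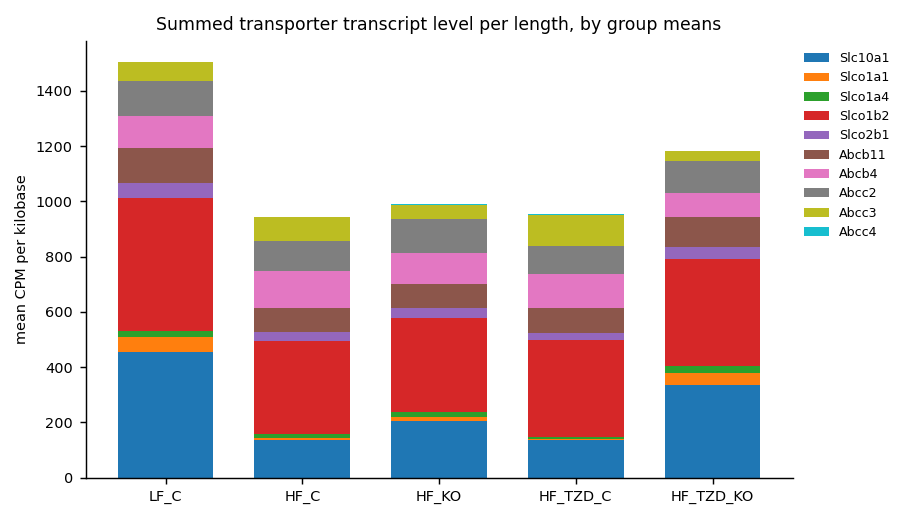
Mean level per length of the 10 transporters (vertical axis, CPM per kilobase) stacked for each of the 5 groups on the horizontal axis, each colour a gene. The Slc10a1 segment is 455.5 CPM per kilobase in LF_C, 135.7 in HF_C and 334.4 in HF_TZD_KO, and Abcc4, at most 2.56 CPM per kilobase, is barely visible.

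The first comparison asked what 34 weeks on the HFCF diet did in control mice. The uptake transporters Slc10a1, Slco1a1, Slco1b2 and Slco2b1 and the canalicular Abcb11 were lower on the diet and the exporter Abcc4 was higher: of the 10 members 5 fell and 1 rose, where 40.6% of the 14772 genes tested were called in either direction (19.2% lower, 21.4% higher). A call is an adjusted p under 0.05 in edgeR's quasi-likelihood test with Benjamini-Hochberg adjustment over all genes tested. The members' median log2 fold change was -0.56, beside -0.03 over all genes tested.

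Slc10a1, the main uptake route of conjugated bile acids, had levels of 759, 619.7, 734 and 937 CPM in the 4 LF_C libraries, in replicate order, against 231, 282, 209, 223 and 189.6 CPM in HF_C. The groups did not overlap, and HF_C was 3.38-fold lower (log2 fold change -1.76, SE 0.13, edgeR adjusted p = 4.6e-06). Slco1a1, an OATP of bile acids and steroid conjugates, had 263, 136, 251 and 206 CPM in LF_C, while HF_C held 8.56, 109.6, 10.7, 27.3 and 21.2 CPM. HF_C replicate 2 was far above the other HF_C libraries yet below all of LF_C. Its log2 fold change was -2.61 (SE 0.62, edgeR adjusted p = 0.00535), and -3.66 (adjusted p = 3.3e-05) without that library, a shift from 6.11-fold to 12.6-fold lower.

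The other uptake genes moved less. Slco1b2 ranged from 1500 to 1722 CPM in LF_C and from 1011 to 1231 CPM in HF_C, a log2 fold change of -0.53 (SE 0.09, edgeR adjusted p = 8.5e-04). Slco2b1, an OATP with a broad range of organic anions, ranged from 202.5 to 256 CPM in LF_C and from 123 to 154 CPM in HF_C, a log2 fold change of -0.70 (SE 0.09, edgeR adjusted p = 1.4e-04). Neither gene's groups overlapped. Slco1a4, which also carries bile acids and cardiac glycosides, had 79.4, 116.6, 62.0 and 60.2 CPM in LF_C, against 85.3, 21.7, 69.2, 46.2 and 32.7 CPM in HF_C, overlapping. It did not pass the test (log2 fold change -0.65, SE 0.34, edgeR adjusted p = 0.144), and passed only without HF_C replicate 1 (-0.90, adjusted p = 0.0482).

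At the canaliculus, the bile salt pump Abcb11 fell, and the phospholipid floppase Abcb4 did not pass the test. Abcb11 ranged from 583 to 708.5 CPM in LF_C, and stood at 449.5, 469.8, 317, 459 and 444 CPM in HF_C, a log2 fold change of -0.60 (SE 0.12, edgeR adjusted p = 0.00212). HF_C replicate 3 was lowest, and the groups did not overlap. Abcb4 ranged from 386 to 547.5 CPM in LF_C and from 464.5 to 606 CPM in HF_C, a log2 fold change of 0.22 (SE 0.12, edgeR adjusted p = 0.145). Abcc2 had a log2 fold change of -0.27 (SE 0.10, edgeR adjusted p = 0.0501), at the edge of the threshold, and passed without LF_C replicate 1 (adjusted p = 0.0407), LF_C replicate 4 (0.0258) or HF_C replicate 1 (0.0378).

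Of the basolateral exporters, Abcc4 rose from 3.82, 5.44, 2.6 and 2.33 CPM in LF_C to 7.38, 6.52, 8.38, 6.68 and 8.72 CPM in HF_C. Each HF_C library was above each LF_C library, and the log2 fold change was 1.07 (SE 0.24, edgeR adjusted p = 0.00363). Abcc3, which exports glucuronides and bile acids, had 332, 398.5, 403 and 286 CPM in LF_C, against 433, 498, 401, 427 and 435.5 CPM in HF_C. These groups overlapped by a single library, and Abcc3 just missed the threshold (log2 fold change 0.29, SE 0.11, edgeR adjusted p = 0.0530), passing it without LF_C replicate 2 (adjusted p = 0.0383), LF_C replicate 3 (0.0392) or HF_C replicate 3 (0.0461), and under other settings such as RLE scaling (0.0437) and DESeq2 (0.0309). In all, 6 members had no overlap between LF_C and HF_C, where 33.6% of genes tested had none.

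Beside these members, a list of 41 other genes of bile acid and anion handling was read in the same fit, of which 37 passed the low-count filter (Slc51a, Slc51b, Slco1a5 and Slco1a6 did not). On the diet 18 of them fell and 7 rose, with a median of -0.30. Those that fell included Nr1h4, the bile acid receptor FXR (log2 fold change -0.70, SE 0.09), Nr1i3, the xenobiotic receptor CAR (-1.56, SE 0.19), and the prostaglandin carrier Slco2a1 (-1.18, SE 0.11), with edgeR adjusted p of at most 9.1e-05. Risers included the cyclic nucleotide exporter Abcc5 (1.22, SE 0.09), Slco3a1 (1.72, SE 0.16) and the membrane linker ezrin, Ezr (1.67, SE 0.19), with edgeR adjusted p of at most 4.9e-05.

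The makeup of the tissue moved in the same comparison. The 20 hepatocyte markers summed to 116212 to 156490 CPM in LF_C and to 75253 to 83869 CPM in HF_C, and 13 of them fell. All 14 cholangiocyte markers rose, their sum going from between 71.2 and 121 CPM to between 613 and 1367 CPM. Of 8 stellate cell markers 7 rose, of 14 macrophage markers 7 rose and 2 fell, and of 10 endothelial markers 1 rose and 3 fell. No marker was at 0 in any group. The part of these shifts in the transporter values was not tested.

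Next came the labelled knockout without drug, the libraries labelled HF_KO against HF_C. Abcc3 was lower in HF_KO and was the only member called, where 1.02% of 14844 genes were called (0.485% higher, 0.539% lower). Abcc3 stood at 212.5, 276, 288, 303.5 and 185 CPM in HF_KO, and every library was below the lowest HF_C library, which held 401 CPM; 2.9% of genes tested had no overlap here. The decrease was 1.73-fold (log2 fold change -0.79, SE 0.12, edgeR adjusted p = 0.00883).

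Slc10a1 moved the other way without passing. It stood at 360.3, 335, 423, 359 and 230.5 CPM in HF_KO, of which replicate 5 lay within the HF_C range. The log2 fold change of 0.60 (SE 0.14) had an edgeR adjusted p of 0.0689, and the test passed without HF_C replicate 2 (0.68, adjusted p = 0.0296) or HF_KO replicate 5 (0.71, adjusted p = 0.00874). DESeq2 gave an adjusted p of 0.00417 for it. Abcb4 went from a mean of 557.8 ± 63.4 CPM in HF_C to 461.4 ± 24.0 CPM in HF_KO (SD, n = 5 each; log2 fold change -0.27, SE 0.08, edgeR adjusted p = 0.176), and it passed without HF_C replicate 3 (-0.33, adjusted p = 0.0397).

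Slco1a1 stood at 19.1, 36.7, 45.2, 103 and 64.1 CPM in HF_KO, again overlapping HF_C (log2 fold change 0.62, SE 0.61, edgeR adjusted p = 0.807; 1.67, adjusted p = 0.0932, without HF_C replicate 2). For Slco1b2, Abcb11 and Abcc4 the log2 fold changes were 0.02, 0.04 and -0.22, with edgeR adjusted p of 0.628 or more. Of the 37 other bile acid and anion genes tested, 1 passed: Slc22a7, an organic anion carrier of the basolateral membrane, rose (log2 fold change 0.64, SE 0.13, edgeR adjusted p = 0.0368). That call was lost without any of 8 of the 10 libraries (adjusted p 0.0510 to 0.112), and it held without replicate 1 of either group. The edgeR test called 0 of 20 hepatocyte markers (5 at an unadjusted p under 0.05, 2 by DESeq2) and 0 of 46 markers of the other 4 cell types (3 and 1). The cholangiocyte sums of 755 to 884 CPM in HF_KO lay within the HF_C range. The hepatocyte sums did not overlap, at 86906 to 99858 CPM in HF_KO against 75253 to 83869 CPM in HF_C. The part of this in the transporter values was not tested.

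With rosiglitazone in control mice, HF_TZD_C against HF_C, both basolateral exporters among the members were higher. Abcc3 and Abcc4 rose and Slco1a1 fell, 3 calls of 10 members, where 5.3% of 14937 genes were called (2.69% higher, 2.61% lower). Abcc4 stood at 14.2, 18.5, 14.9, 12.5 and 13.1 CPM in HF_TZD_C, with no library as low as the highest HF_C library, at 8.72 CPM. This 1.94-fold increase had a log2 fold change of 0.96 (SE 0.12, edgeR adjusted p = 5.3e-04). Abcc3 stood at 545, 579, 567.5, 539 and 537 CPM, also with no overlap (6.07% of genes had none), and was 1.26-fold higher (log2 fold change 0.34, SE 0.06, edgeR adjusted p = 0.00837). With all 24 libraries sharing 1 estimate of spread, Abcc3 did not pass (adjusted p = 0.134).

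Slco1a1 was at its lowest of any group, at 6.73, 5.46, 5.83, 11.4 and 7.90 CPM. The HF_C libraries at 8.56 and 10.7 CPM lay within that range, and the log2 fold change was -2.24 (SE 0.60, edgeR adjusted p = 0.0454). Without HF_C replicate 2 the decrease was smaller, at -1.18 (adjusted p = 0.0490). Leaving out HF_C replicate 4 or 5, or any HF_TZD_C library, took the adjusted p to between 0.0547 and 0.12, so that this call held in 3 of 10 such fits, and with all 24 libraries in 1 fit it was lost (0.0940). Slco1a4 stood at 33.6, 35.5, 33.0, 30.7 and 22.6 CPM (log2 fold change -0.71, SE 0.29, edgeR adjusted p = 0.186; -0.90, adjusted p = 0.0315, without HF_C replicate 2).

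The diet-lowered Slc10a1 did not differ detectably with the drug in control mice, at 224, 214, 264, 248 and 202 CPM (log2 fold change 0.02, SE 0.10, edgeR adjusted p = 0.938). Nor did the canalicular genes pass, with log2 fold changes of 0.04 for Abcb11, -0.15 for Abcb4 and -0.02 for Abcc2. Of 36 other bile acid and anion genes tested, 4 fell and none rose. The FGF15 receptor Fgfr4 fell (log2 fold change -0.52, SE 0.09, edgeR adjusted p = 0.00468). So did the sodium-dependent bile acid carrier Slc10a2 (-0.96, SE 0.23, adjusted p = 0.0280) and the repressor Nr0b2, known as SHP (-0.78, SE 0.20, adjusted p = 0.0347). Slc10a2 passed in 3 and Nr0b2 in 5 of the 10 fits that left a library out, and the list's count ran from 1, without HF_C replicate 2, to 5. Of the hepatocyte markers 7 fell and 1 rose, with sums of 66728 to 79420 CPM in HF_TZD_C, and edgeR called 0 of 46 markers of the other 4 cell types, with 17 at an unadjusted p under 0.05 and 5 by DESeq2. The part of these in the transporter values was not tested.

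In the libraries labelled knockout the same drug, HF_TZD_KO against HF_KO, left no member past the threshold. The edgeR test called 0 of 10 members, where 0.735% of 14559 genes were called (0.426% higher, 0.309% lower). Over all genes the calls numbered 107, and 0 to 223 with a library left out in turn. Of the members, 5 had an unadjusted p under 0.05, and DESeq2 called 4. Slc10a1 stood at 387.5, 536, 627, 482 and 766 CPM in HF_TZD_KO (log2 fold change 0.72, SE 0.18, edgeR adjusted p = 0.0846; DESeq2 0.00764; 0.0176 with all 24 libraries in 1 fit). Only HF_TZD_KO replicate 1 lay within the HF_KO range, and without it the edgeR test passed (0.83, adjusted p = 0.0402).

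Abcc3 was lower still in HF_TZD_KO, at 162, 162, 158, 173 and 200 CPM, and overlapped HF_KO only through replicate 5. Its log2 fold change of -0.56 (SE 0.13) had an edgeR adjusted p of 0.0672, and of 0.0463 (-0.62) without HF_TZD_KO replicate 5. Abcc3 also passed with DESeq2 (adjusted p = 0.00586) and, in edgeR, with all 24 libraries in 1 fit (0.0109), library totals (0.0356) or no filter (0.0408). It did not pass with RLE scaling or with replicate number as a block. Slco2b1 and Abcb4 had no overlap between the groups, where 4.32% of genes had none. Slco2b1 stood at 175, 175, 188, 175.5 and 232 CPM in HF_TZD_KO against 149.9 to 162 CPM in HF_KO (log2 fold change 0.29, SE 0.08, edgeR adjusted p = 0.123). Abcb4 stood at 368, 261, 422, 309.8 and 393 CPM against 439.9 to 501 CPM (log2 fold change -0.39, SE 0.12, edgeR adjusted p = 0.133).

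Slco1a1 varied most among the HF_TZD_KO libraries, at 34.7, 70.3, 298, 30.8 and 411 CPM. Replicates 3 and 5 were above every LF_C library while the other 3 stayed within the range of HF_KO (log2 fold change 1.66, SE 0.68, edgeR adjusted p = 0.268; 1.02, adjusted p = 0.510, without replicate 5). Replicate 5 was also highest of its group for Slc10a1, Slco1b2, Slco2b1, Abcb11, Abcc2 and Abcc3, and lowest for Abcc4. That library had the group's highest hepatocyte marker sum (153532 CPM). It had the group's lowest sums for cholangiocyte (257.8 CPM), macrophage (416.8), endothelial (352.5) and stellate (418.5 CPM) markers. The part of that makeup in its transporter values was not tested. Abcc4 did not pass either (log2 fold change -0.04, SE 0.23, edgeR adjusted p = 0.959). The edgeR test called 0 of the 36 other bile acid and anion genes, with 6 at an unadjusted p under 0.05 and 2 called by DESeq2. Of the 20 hepatocyte markers edgeR called 2, both higher, with a median log2 fold change of 0.45; 16 had an unadjusted p under 0.05 and DESeq2 called 12. The edgeR test called 0 of the 46 others (5 at an unadjusted p under 0.05, 1 by DESeq2). The part of the hepatocyte marker shift in the transporter values was not tested.

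The comparison with the most member calls set genotypes side by side under rosiglitazone, HF_TZD_KO against HF_TZD_C. The uptake transporters Slc10a1, Slco1a1, Slco1a4 and Slco2b1 were higher in the libraries labelled knockout. Abcb4 and both basolateral exporters among the members, Abcc3 and Abcc4, were lower. In all 4 members rose and 3 fell, where 16.3% of 14602 genes were called (8.53% higher, 7.81% lower), and the 7 calls were kept with every other setting and every library left out in turn. The same 7 members had no overlap between the groups, where 14.3% of genes had none. Their changes also had the same sign under each scaling.

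Slco1a1 rose 22.5-fold, from at most 11.4 CPM in HF_TZD_C to at least 30.8 CPM in HF_TZD_KO (log2 fold change 4.49, SE 0.72, edgeR adjusted p = 0.00103; 3.85, adjusted p = 7.0e-04, without HF_TZD_KO replicate 5). Slco1a4 stood at 98.0, 124, 59.7, 102 and 114 CPM in HF_TZD_KO and was 3.21-fold higher (log2 fold change 1.68, SE 0.18, edgeR adjusted p = 4.8e-05). HF_TZD_KO replicate 3, its lowest library, was still above the highest HF_TZD_C library at 35.5 CPM. Slc10a1 was 2.43-fold higher (log2 fold change 1.28, SE 0.15, edgeR adjusted p = 1.3e-04), and Slco2b1 was 1.53-fold higher (0.61, SE 0.08, adjusted p = 2.8e-04). Slco1b2, the most abundant OATP, did not pass (0.15, SE 0.15, adjusted p = 0.534).

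Abcc3 gave the smallest adjusted p of any member in these edgeR tests. It was 3.23-fold lower (log2 fold change -1.69, SE 0.08, edgeR adjusted p = 9.7e-08), with HF_TZD_KO libraries between 158 and 200 CPM. Abcc4 stood at 6.39, 5.42, 4.64, 10.5 and 4.31 CPM in HF_TZD_KO, with replicate 4 highest but under the lowest HF_TZD_C library, and was 2.33-fold lower (log2 fold change -1.22, SE 0.22, edgeR adjusted p = 0.00220). Abcb4 was 1.43-fold lower (-0.52, SE 0.12, adjusted p = 0.0133). Abcb11 and Abcc2 overlapped and did not pass (log2 fold changes 0.33 and 0.17, edgeR adjusted p = 0.281 and 0.179).

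Of the 36 other bile acid and anion genes, 13 rose and 2 fell. Fgfr4 rose (log2 fold change 0.81, SE 0.09), as did Slco2a1 (1.01, SE 0.12) and the bile acid ligase Slc27a5 (0.81, SE 0.12), with edgeR adjusted p of at most 5.8e-04. The multidrug pump Abcb1a fell (-0.65, SE 0.09, adjusted p = 2.9e-04), and so did the anion pump Abcg2 (-0.40, SE 0.12, adjusted p = 0.0314). The Abcg2 call was lost without HF_TZD_C replicate 3, 4 or 5 or HF_TZD_KO replicate 4 (adjusted p 0.0634 to 0.0701). Of the hepatocyte markers 15 rose and 1 fell, their sum being 109261 to 153532 CPM in HF_TZD_KO, and the part of this in the transporter values was not tested. Of 14 cholangiocyte markers 0 were called by edgeR or DESeq2 and 0 had an unadjusted p under 0.05, and their sums overlapped at 258 to 757 CPM against 424 to 723.5 CPM. Of 14 macrophage markers 1 fell, with a median log2 fold change of -0.63 (8 at an unadjusted p under 0.05, 5 by DESeq2). Of 10 endothelial markers 2 fell (median -0.38; 6 unadjusted, 2 by DESeq2), and of 8 stellate markers 2 fell (median -0.16; 2 unadjusted, 2 by DESeq2).

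**Figure D3:**
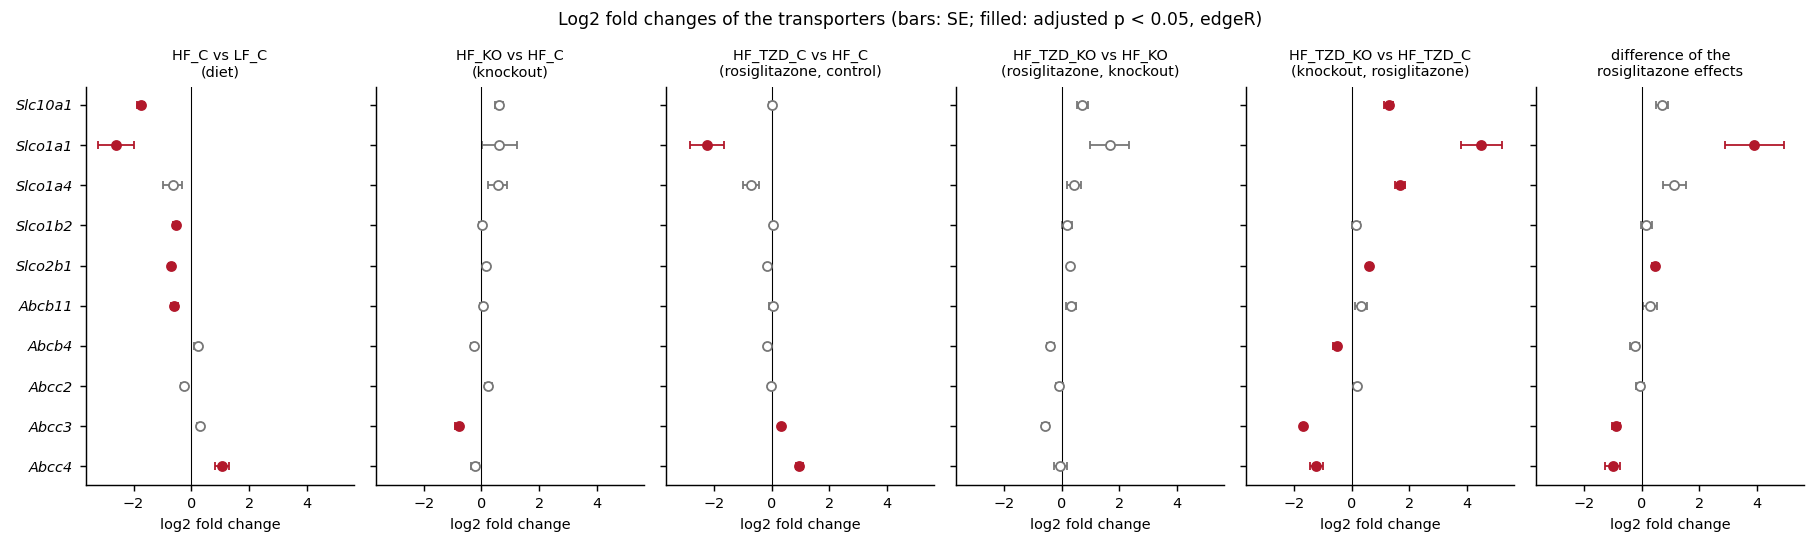
Log2 fold change of each transporter (horizontal axes) in the 5 comparisons and for the difference of the rosiglitazone effects, with bars for the SE and filled points for adjusted p under 0.05 in edgeR. In HF_TZD_KO against HF_TZD_C, Slco1a1 lies at 4.49 and Abcc3 at -1.69, and Slc10a1 moves from -1.76 with diet to 0.02 with rosiglitazone in control mice.

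Whether rosiglitazone acted differently in the genotypes was tested as the effect in the libraries labelled knockout minus that in controls, in 1 fit of the 20 HFCF libraries. Of the 10 members 2 had a positive and 2 a negative difference, where 2.45% of 15365 genes were called (1.56% positive, 0.892% negative). The difference for Abcc3 was -0.89 on the log2 scale (SE 0.15, edgeR adjusted p = 0.00276): it was 0.34 with the drug in controls and -0.56 in knockout-labelled mice. It passed with every other setting and with each library left out (adjusted p at most 0.00940).

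The other 3 calls were less steady. Slco2b1 differed by 0.45 (SE 0.11, edgeR adjusted p = 0.0227), and it did not pass without HF_C replicate 1, HF_KO replicate 2 or HF_TZD_C replicate 2 or 5 (0.0507 to 0.0595). Slco1a1 differed by 3.90 (SE 1.02, edgeR adjusted p = 0.0445). It passed in 7 of 20 fits that left a library out, those without HF_C replicate 1 or 3, HF_KO replicate 4, HF_TZD_C replicate 4 or HF_TZD_KO replicate 1, 2 or 4, and was lowest at 2.83 (adjusted p = 0.105) without HF_C replicate 2 and 3.26 (0.0820) without HF_TZD_KO replicate 5. Abcc4 differed by -1.0 (SE 0.26, edgeR adjusted p = 0.0480), and passed in 4 of 20, those without HF_C replicate 3, HF_KO replicate 1, or replicate 4 of HF_TZD_C or HF_TZD_KO, with adjusted p of up to 0.109 in the rest. Slc10a1 had a difference of 0.70 (SE 0.22, edgeR adjusted p = 0.103) and passed without HF_TZD_KO replicate 1 (0.80, adjusted p = 0.0395) and with DESeq2 (adjusted p = 0.0470).

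Among 38 other bile acid and anion genes, 7 had a positive difference and none a negative one, a count that fell to 1 without HF_C replicate 5, HF_KO replicate 2 or HF_TZD_C replicate 2 and was at most 6 with any other library left out. Fgfr4 differed by 0.59 (SE 0.12, edgeR adjusted p = 0.00840), Slc10a2 by 1.46 (SE 0.35, adjusted p = 0.0291) and the canalicular cation exchanger Slc47a1 by 0.43 (SE 0.11, adjusted p = 0.0347). The Slc10a2 call was lost in 8 and the Slc47a1 call in 12 of the 20 fits that left a library out. Of the 20 hepatocyte markers 9 had a positive difference (14 at an unadjusted p under 0.05, 12 by DESeq2), and edgeR called 0 of the 46 others (5 at an unadjusted p under 0.05, 0 by DESeq2).

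Ordered by group mean, Slc10a1 ran from LF_C (762.5 ± 131.1 CPM) through HF_TZD_KO (559.8 ± 144.3), HF_KO (341.5 ± 70.0) and HF_TZD_C (230.3 ± 25.2) to HF_C (227.1 ± 34.6 CPM; SD). Neighbours in that order overlapped at each step. Abcc3 ran from HF_TZD_C (553.3 ± 18.7 CPM) through HF_C (438.9 ± 35.7), LF_C (355.0 ± 56.0) and HF_KO (253.1 ± 51.6) to HF_TZD_KO (171.0 ± 17.1 CPM; SD), and only HF_TZD_C was clear of its neighbour. Abcc4 was likewise separate only in HF_TZD_C (14.6 ± 2.34 CPM), followed by HF_C (7.53 ± 0.988), HF_KO (6.47 ± 1.02), HF_TZD_KO (6.26 ± 2.52) and LF_C (3.55 ± 1.42 CPM; SD). The mean marker sums of macrophages (1066.6 CPM in HF_TZD_C to 621.4 in LF_C) and stellate cells (1179.2 to 367.6 CPM) had the same order of groups. Those of hepatocytes, cholangiocytes and endothelial cells did not. The part of these cell types in the Abcc4 values was not tested. Slco1a1 and Slco2b1 shared an order of LF_C, HF_TZD_KO, HF_KO, HF_C and HF_TZD_C, in which only Slco2b1 had neighbours that did not overlap, HF_TZD_KO and HF_KO. No fit compared HF_TZD_KO with LF_C. As a share of the LF_C mean, the HF_TZD_KO mean was 73.4% for Slc10a1, 79.0% for Slco1a1, 84.5% for Slco2b1 and 48.2% for Abcc3. It was 125.2% for Slco1a4, 80.5% for Slco1b2, 85.6% for Abcb11, 74.0% for Abcb4, 92.5% for Abcc2 and 176.5% for Abcc4. All but Abcc3 overlapped. For Slco1a1 the median was 70.3 CPM in HF_TZD_KO against 228.7 CPM in LF_C. Only HF_TZD_KO replicates 3 and 5 reached the lowest LF_C library, at 135.6 CPM.

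A ratio within a library, chosen after the values were seen and so not tested, sets Abcc3 against the main bile acid carrier, Slc10a1. Per length, Abcc3 over Slc10a1 was 0.102 to 0.215 in LF_C and 0.590 to 0.768 in HF_C. It was 0.720 to 0.905 in HF_TZD_C, against 0.197 to 0.283 in HF_KO and 0.0845 to 0.14 in HF_TZD_KO. The knockout-labelled groups overlapped neither control group on the HFCF diet. The ratio of Abcb4, which supplies phospholipid to bile, over Abcb11, which supplies bile salts, averaged 0.917 ± 0.162 in LF_C (SD, n = 4) and 0.817 ± 0.140 in HF_TZD_KO, the lowest. It averaged 1.62 ± 0.138 in HF_C, 1.43 ± 0.132 in HF_TZD_C and 1.30 ± 0.0878 in HF_KO (SD, n = 5 each).

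**Figure D4:**
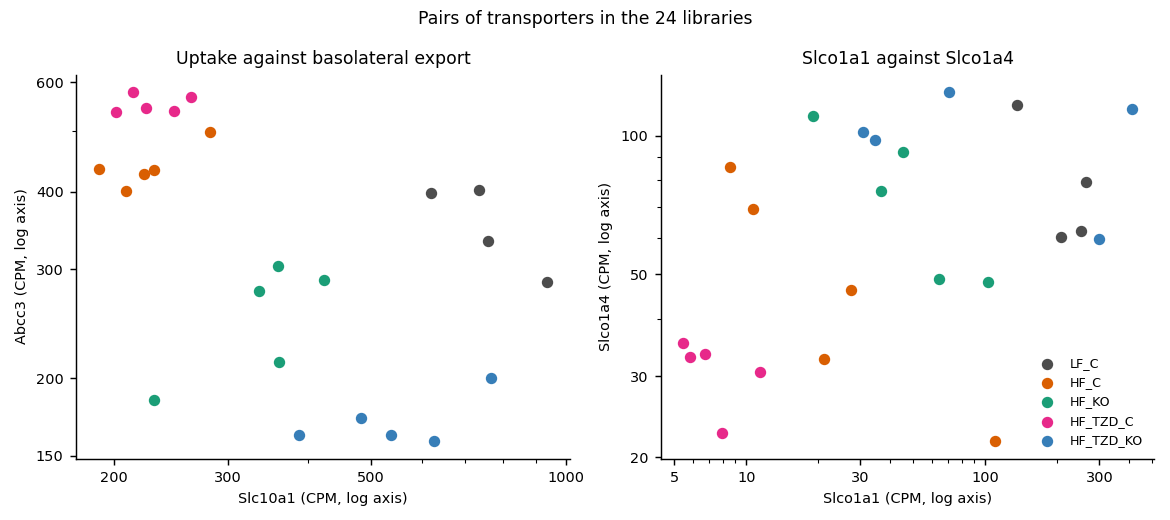
Level of Abcc3 against Slc10a1 (left) and of Slco1a4 against Slco1a1 (right) in the 24 libraries, in CPM on log axes, with 1 point for each library coloured by group. HF_TZD_KO lies at Abcc3 of 158 to 200 CPM with Slc10a1 of 387.5 to 766 CPM, and in HF_C the library highest for Slco1a1, at 109.6 CPM, is lowest for Slco1a4, at 21.7 CPM.

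Slco1a1 and Slco1a4 are neighbours on chromosome 6 and differ between the sexes in mouse liver, Slco1a1 being higher in males and Slco1a4 in females. Every library here carried reads of Y-linked Ddx3y (65.8 to 103.2 CPM) and at most 1.17 CPM of Xist. Within HF_C, replicate 2 was highest for Slco1a1 (109.6 CPM) and lowest for Slco1a4 (21.7 CPM), and replicate 1 was the reverse (8.56 and 85.3 CPM). Within HF_KO, replicate 4 was highest for Slco1a1 (103 CPM) and lowest for Slco1a4 (48.2 CPM), with replicate 1 again the reverse (19.1 and 110.2 CPM). In LF_C, replicate 2 was lowest for Slco1a1 (135.6 CPM) and highest for Slco1a4 (116.6 CPM). The LF_C library highest for Slco1a1, replicate 1 (262.8 CPM), was not lowest for Slco1a4 (79.4 CPM). In HF_TZD_C both genes were low in all 5 libraries. In HF_TZD_KO replicate 5 was high for both (411 and 114 CPM), while replicate 3 was high for Slco1a1 (298.2 CPM) and lowest for Slco1a4 (59.7 CPM). Slco1a1 over Slco1a4 per length thus ran from 0.0983 to 4.96 within HF_C alone.

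Genes most like a member over the 24 libraries were taken as those with the smallest root mean square difference of centred log2 CPM, among 13232 genes averaging at least 1 CPM, for the 5 members of widest span. Slco1a1 came closest to 2810007J24Rik (0.818), Slc22a28 (0.83) and the major urinary protein gene Mup3 (0.928), beside a spread of 1.93 of its own. Slc10a1 came closest to Serpina1d (0.219), Homer2 (0.242) and the mitochondrial carbonic anhydrase Car5a (0.253). Abcc3 lay near Aldh3a2 (0.244), a fatty aldehyde dehydrogenase, the peroxisomal thiolase Acaa1b (0.257) and Unc119 (0.263). Abcc4 lay near the mechanosensitive channel Piezo1 (0.289), Apbb1ip (0.290) and Adap1 (0.295), and Slco1a4 near Serpina3m (0.423), Gm11437 (0.444) and Slco2a1 (0.466). Ranked by Spearman's rho instead, the top 3 were the same genes for Abcc3, 1 of 3 was shared for Slco1a1 and none for the other 3 members; the libraries share groups, so these are descriptions.

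The authors' deposited tables, from shrunken DESeq2 fold changes, called 8 members with the diet, 6 of them lower. They added Abcc2 (adjusted p = 0.0394 in the authors' deposited table) and Abcc3 (0.0311) to the 6 given above. For HF_KO against HF_C the authors' deposited table called Slc10a1 (log2 fold change 0.46, adjusted p = 0.00385) and Abcc3. For HF_TZD_KO against HF_KO it called Slc10a1, Slco2b1, Abcb4 and Abcc3, with adjusted p of 0.00734, 0.0448, 0.0474 and 0.00556 in the authors' deposited table. The same 3 members with rosiglitazone in controls, and the same 7 between genotypes under rosiglitazone, were called in the authors' deposited tables as in the edgeR test. Of the pairwise comparisons given above, 3 share the HF_C libraries, which also enter the difference of the rosiglitazone effects. The libraries of HF_KO, HF_TZD_C and HF_TZD_KO likewise enter several comparisons, so their values are not independent of each other.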

How the data were processed

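Whole liver RNA was extracted with Trizol, per the labels, with RIN values of 7.5 to 9.3. Reads were aligned with STAR 2.6.1 to GRCm38/mm10, counted with HTSeq 0.6.1 and tested with DESeq2, per the submitters' processing notes; the annotation release is not given in the sources used here. The authors deposited 5 tables of whole-number read counts per gene, joined here by gene identifier with 0 counts differing between tables. The other deposited values are a signal (counts over a size factor), FPKM, gene length in bases, shrunken log2 fold changes, and p-values with adjusted p-values, which the authors computed within each table.

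The libraries of each compared pair of groups were analysed with edgeR 4.0.16 (R 4.3.3). Low genes were dropped by filterByExpr (at least 10 reads, 15 in total), scaling was by TMM, and the quasi-likelihood test was two-sided, with calls at a Benjamini-Hochberg adjusted p under 0.05. The SE is the log2 fold change over the square root of F. CPM used TMM over all 24 libraries, with a prior count of 2 on the log2 scale. The code was tested on simulated data. Alternatives were RLE scaling, library totals, no filter, DESeq2 1.42.0, all 24 libraries in 1 fit, a replicate block, each library left out, and for levels the authors' FPKM.

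The text names all 10 members, up to 3 called genes per direction of the 41 other genes with the smallest adjusted p, Pparg, and for 5 members the 3 most similar genes. The members, lists and tests were chosen with earlier results of these data known. Each library is 1 mouse, and the tests set differences between groups against the spread between mice. Averaged over genes, pairs of replicates differed by more than counting error (chi-square values per degree of freedom of 11.6 to 73.5). That average, scaled by library totals, does not give the part of counting error for a gene with few reads such as Abcc4.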

Additional observations from a re-analysis of the deposited data

Results flagged for a closer look

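Over 85 groups of 4 or 5 libraries, 4 had a library that stood apart by Dixon's test, which flags about 1 in 20 groups by chance. Slco1a1 in HF_C replicate 2 was at 109.6 CPM where the other 4 libraries were at 8.56 to 27.3 CPM. Abcb11 in HF_C replicate 3 was at 316.7 CPM against 443.9 to 469.8 CPM. Slco2b1 in HF_TZD_KO replicate 5 was at 232.0 CPM against 174.8 to 188.4 CPM. That library also had the highest hepatocyte marker sum of its group and the lowest sums of the other 4 marker lists. The summed cholangiocyte markers of HF_KO replicate 3 were at 884.2 CPM against 755.1 to 782.8 CPM. For Slco1a1, values without HF_C replicate 2 are given beside the results above. With any 1 library left out, the log2 fold change of Abcb11 with the diet ran from -0.64 to -0.50 (edgeR adjusted p at most 0.00841). That of Slco2b1 for HF_TZD_KO against HF_KO ran from 0.20 to 0.32 (edgeR adjusted p at least 0.105).

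For 4 members the effect of rosiglitazone differed between genotypes by the test of the difference itself (edgeR, knockout-labelled minus control, log2 scale): Slco1a1 at 3.90, Slco2b1 at 0.45, Abcc3 at -0.89 and Abcc4 at -1.0. Only the Abcc3 difference passed in every fit that left a library out and under every other setting.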

How the results depend on the processing

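The counts of called members kept within 1.5 times of the value given for the diet (6; 6 to 8 under the other settings and with a library left out) and for HF_TZD_KO against HF_TZD_C (7 throughout). For HF_KO against HF_C the count of 1 became 2 with library totals, no filter, DESeq2 or the replicate block (1 to 2 with a library left out). For HF_TZD_C against HF_C the count of 3 became 1 with all 24 libraries in 1 fit (2 to 4 with a library left out). For HF_TZD_KO against HF_KO the count of 0 became 2 with library totals, 1 with no filter, 4 with DESeq2 and 3 with all 24 libraries (0 to 1 with a library left out). For the difference of the drug effects the count of 4 became 1 with the replicate block, under which Slco1a1, Slco2b1 and Abcc4 had adjusted p of 0.0973, 0.0520 and 0.0904 (1 to 4 with a library left out). The cause was not tested.

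The labels do not say whether replicate numbers in the titles pair the mice, and weak correlations cannot settle it. Same-numbered libraries correlated at -0.28 to 0.27, and at no comparison did every library correlate best with its own number. For HF_KO against HF_C the mean was 0.09 for the same number and -0.02 for other numbers. There the block called 158 genes in place of 152, and Slc10a1 passed (edgeR adjusted p = 0.0355). With the block, 0 genes in place of 107 were called for HF_TZD_KO against HF_KO. It gave 386 in place of 792 for HF_TZD_C against HF_C and 236 in place of 376 for the difference. DESeq2 called 649, 1219 and 733 for these last 3, and 370 in place of 152 for HF_KO against HF_C. All 24 libraries in 1 fit gave 440, 387, 202 and 90. With library totals 220 were called for HF_TZD_KO against HF_KO and 3656 in place of 2387 for HF_TZD_KO against HF_TZD_C. No filter gave 201 for the former. That count was 0 without HF_KO replicate 2, 3, 4 or 5 or HF_TZD_KO replicate 2 or 4. It was 14 without HF_TZD_KO replicate 3, and 143 to 223 without any other library.

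Of the 41 other genes, calls for HF_KO against HF_C (1) were 0 with library totals, all 24 libraries or the block and 3 with DESeq2. Those for HF_TZD_C against HF_C (4) were 2 with all 24 libraries or the block, those for HF_TZD_KO against HF_KO (0) were 2 with DESeq2 and 1 with all 24, and those for the difference (7) were 4 with library totals, 2 with all 24 or the block and 1 to 6 with a library left out. Library totals shifted the median of all genes to 0.24 with the diet and to -0.16 for HF_TZD_KO against HF_TZD_C, and moved the higher share of calls from 52.8% to 85.7% and from 52.2% to 20.2%. They moved it from 47.4% to 32.2% for HF_KO against HF_C, from 57.9% to 23.2% for HF_TZD_KO against HF_KO and from 63.6% to 29.6% for the difference. No called member changed sign under any setting run. Levels moved by over 1 SD in 14 of 390 recomputed group means, all 14 with library totals or FPKM. Abcc4, with as few as 47 reads in a library, has the least depth.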
